A study of Mus musculus with 15 samples.

Results

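The 3015 probes of mouse chromosome 7 (Chr7) were followed through 5 hepatocellular carcinomas (HCC) and 3 unaffected livers. They were every non-control probe that the array places on Chr7, taken in order of position, out of 40726 autosomal probes and 42404 distinct probes in all. Their positions ran from 3564288 to 152507860 with a median spacing of 16.7 kb, and 2623 of them carried 1 of 1580 gene names. Array comparative genomic hybridisation (aCGH) labels the DNA of a tissue and that of a reference with different dyes and lets them compete for the same probes, and values here are log2 of tissue over reference. A ratio of 0 is the median autosomal probe of that array, and an even loss of DNA in part of the cells gives a negative value. Positions are those of the array design. The files do not name its genome build, and 269 probes lay beyond the last Chr7 gene of the GRCm38.p6 gene table, so positions from that table were not used.

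The mice were C57BL/6.129 animals with floxed Mad2 (Mad2l1) and p53 (Trp53) alleles and an Albumin-Cre transgene. It deletes floxed alleles in developing hepatocytes and not in every cell of a liver. Mouse 3151, a female of 16.4 months that was Mad2(f/f) p53(f/+), gave HCC 1, HCC 2 and unaffected liver 1. Mouse 3760, a male of 13.8 months, gave HCC 3 with unaffected liver 2, and mouse 4033, a male of 13.9 months, gave HCC 4, HCC 5 and unaffected liver 3, and both were Mad2(f/f) p53(f/f). Every tissue, unaffected livers included, therefore came from a Mad2(f/f) animal with at least 1 floxed p53 allele. The reference was normal liver DNA of strain C57BL/6.129 and of the opposite sex, and the labels give no animal for it. Tissues of mouse 3151 were therefore read against male reference DNA and those of mice 3760 and 4033 against female reference DNA. Tumours were resected tissue, so that DNA of blood vessels, immune cells and neighbouring liver was measured with that of the tumour cells. The 8 tissues are separate samples but share 3 animals, and p-values measure the spread between these tissues.

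Mad2l1 is a core protein of the spindle assembly checkpoint, which holds a dividing cell until every chromosome is attached to the spindle. Cells without it can missegregate whole chromosomes, and aCGH then reads a shift that is even from one end of a chromosome to the other, whereas a deletion or duplication of a part shows as a step. Mouse Chr7 holds several imprinted domains, in which only the maternal or the paternal copy is active, genes of liver metabolism such as Cyp2e1 and Fah, and long tandem clusters of odorant receptor, zinc finger and kallikrein genes, whose copy number often varies between mouse strains.

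The 11 probes below carry the local findings, and their sequences are given as the array files list them, without a stated strand. The first 3 lie in a block from Kctd15 to Cebpg (chr7:35429866-35429911, chr7:35734395-35734454 and chr7:35837879-35837938). Of the next 5, 4 read far lower in mouse 3760, and the second Rasip1 probe is shown because it did not while its neighbour did (chr7:38799528-38799587, chr7:52885244-52885303, chr7:52890148-52890207, chr7:83005429-83005488 and chr7:103108483-103108542). The last 3 read higher in mouse 3151 (chr7:19109168-19109225, chr7:24916313-24916372 and chr7:25076044-25076103). No base is singled out, so all are in lower case. None of them shared a run of 20 bases, on either strand, with another probe of the array.
Kctd15: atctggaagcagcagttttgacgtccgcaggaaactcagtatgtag
Pepd: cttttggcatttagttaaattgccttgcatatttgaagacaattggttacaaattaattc
Cebpg: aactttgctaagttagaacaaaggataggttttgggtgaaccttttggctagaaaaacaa
C80913: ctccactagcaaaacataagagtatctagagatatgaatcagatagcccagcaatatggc
Rasip1, first probe: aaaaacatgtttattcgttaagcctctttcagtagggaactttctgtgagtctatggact
Rasip1, second probe: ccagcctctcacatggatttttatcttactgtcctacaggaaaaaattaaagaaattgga
Klhl25: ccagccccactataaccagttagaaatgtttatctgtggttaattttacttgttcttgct
AK030497: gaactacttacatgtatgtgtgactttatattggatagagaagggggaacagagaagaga
Psg25: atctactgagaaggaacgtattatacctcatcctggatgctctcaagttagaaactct
AK029597: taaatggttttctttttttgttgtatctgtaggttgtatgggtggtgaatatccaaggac
Zfp61: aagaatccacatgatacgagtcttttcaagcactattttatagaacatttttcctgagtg

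Chr7 as a whole lay below the autosomal median in all 5 HCC and close to it in the 3 unaffected livers. The level of Chr7, the mean over its probes, read -0.31, -0.13, -0.078, -0.10 and -0.30 from HCC 1 to HCC 5. The 3 unaffected livers, in the order of their numbers, read 0.022, -0.016 and -0.011. Every HCC was below every unaffected liver, and HCC 1 and HCC 5, from different mice, were the lowest while the other 3 HCC lay together nearer 0. The HCC mean was -0.19 ± 0.11 (SD, n = 5) and the unaffected liver mean -0.0015 ± 0.021 (SD, n = 3). The difference of -0.18 (SE 0.11) did not pass the threshold in limma across the 19 autosomes, of which it called 5.26% (adjusted p = 0.361 for Chr7). A two-sided exact permutation test over the 56 splits of the 8 tissues gave p = 0.0536 without adjustment, where the smallest p these splits can give is 0.0179. Since every HCC lay below every liver, no split gave a lower difference, and the other splits counted in p went the opposite way. The splits took no account of tissues that share a mouse. Leaving out 1 tissue in turn gave differences from -0.21 to -0.15 and adjusted p from 0.144, without HCC 2, to 0.746, without unaffected liver 2.

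Both dye orientations of one DNA gave nearly the same Chr7 level in the tumours. The forward and dye-swap arrays read -0.32 and -0.31 in HCC 1, -0.14 and -0.13 in HCC 2, -0.11 and -0.098 in HCC 4, and -0.30 and -0.30 in HCC 5, and HCC 3 had a forward array alone. The widest gap was in unaffected liver 1, at -0.0038 and 0.049. As a scale for the ratios of the livers, X probes, of which a female has a copy more than a male, had means of 0.88, -0.87 and -0.92 in unaffected livers 1 to 3. The HCC did not keep this scale, with X means of 0.30, 0.35, -1.09, -1.30 and -0.68 from HCC 1 to HCC 5. Against the liver of its own mouse, Chr7 differed by -0.34, -0.16, -0.062, -0.091 and -0.29 from HCC 1 to HCC 5. HCC 1 was lowest and HCC 3 nearest 0 on both scales. The sizes and this order depended on where 0 was set. The mode of the autosomal probes lay at 0.11 and 0.25 in HCC 1 and HCC 5 and at -0.088, -0.025 and 0.050 in the other 3 HCC. With the mode as 0, Chr7 read -0.42, -0.048, -0.051, -0.15 and -0.55 from HCC 1 to HCC 5, so that HCC 5 was lowest, and the livers read between -0.035 and 0.014, still above every HCC. With the mouse as a replicate block the difference was -0.18 (adjusted p = 0.544). Within the first scan day HCC minus unaffected liver was -0.17 (2 against 2 tissues) and within the second -0.21 (3 against 1), and within the 3 slides that held both groups it was -0.062, -0.29 and -0.12.

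**Figure D1:**
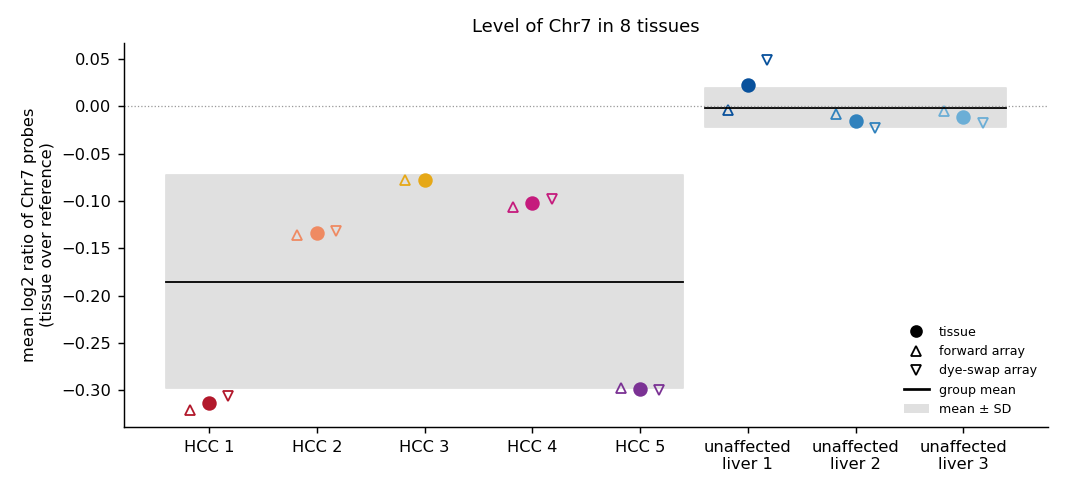
Level of Chr7 (y axis, mean log2 ratio of its 3015 probes) in each tissue (x axis). Filled circles are tissues, open triangles single arrays by dye orientation, horizontal lines group means and grey bands mean ± SD over tissues. All 5 HCC, between -0.31 and -0.078, lie below the 3 unaffected livers, and arrays of one tissue lie close together in the HCC.

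The lower level of the HCC ran along the entire chromosome. In HCC 1 the mean over the proximal, middle and distal 1005 probes was -0.30, -0.33 and -0.31, and in HCC 5 it was -0.31, -0.29 and -0.29. The 3 HCC nearer 0 were also alike along the chromosome, with -0.15, -0.13 and -0.13 for HCC 2, -0.086, -0.084 and -0.064 for HCC 3, and -0.098, -0.10 and -0.11 for HCC 4. The share of Chr7 probes with a ratio below 0 was 98.7% in HCC 5 and 94.2% in HCC 1, against 44.5% and 46.4% of the probes of all other autosomes in the same tissues. It was 79.4% in HCC 2, 70.6% in HCC 4 and 64.5% in HCC 3, and 44.1% to 55.0% in the unaffected livers. Among the 19 autosomes, Chr7 was the fourth lowest in HCC 1, the seventh lowest in HCC 2, HCC 3 and HCC 4, and the eighth lowest in HCC 5, so that other autosomes lay lower in each tumour. The level differed little with the base composition of the probes. Chr7 probes in the third of lowest and of highest GC content read -0.29 and -0.34 in HCC 1, and -0.31 and -0.28 in HCC 5. The widest such gap was in unaffected liver 1, at -0.012 and 0.053.

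In windows of 5 Mb, 30 of which held at least 10 Chr7 probes, HCC minus unaffected liver lay between -0.21 and -0.16, with SE from 0.115 to 0.119. All 5 HCC were below all 3 unaffected livers in 28 of the 30 windows, against 6.4% of all 484 autosomal windows. The 2 windows with overlap were 35 to 40 Mb, where unaffected liver 2 at -0.18 lay below HCC 4 at -0.17, and 65 to 70 Mb, where HCC 3 read 0.011. Limma called 0 of the 30 windows (adjusted p from 0.518 to 0.534), and 0 had an unadjusted p under 0.05, where 4 of the 484 windows passed over all autosomes (0.826%). The window 35 to 40 Mb was the lowest of Chr7 for HCC 1 (-0.40), HCC 2 (-0.23), HCC 3 (-0.26) and HCC 5 (-0.42), and for unaffected livers 2 (-0.18) and 3 (-0.11). In HCC 4 it was the second lowest, at -0.17, behind 65 to 70 Mb at -0.23. The SD between Chr7 windows of one tissue ran from 0.023 to 0.048, and the median of the same SD over the other autosomes from 0.026 to 0.043.

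**Figure D2:**
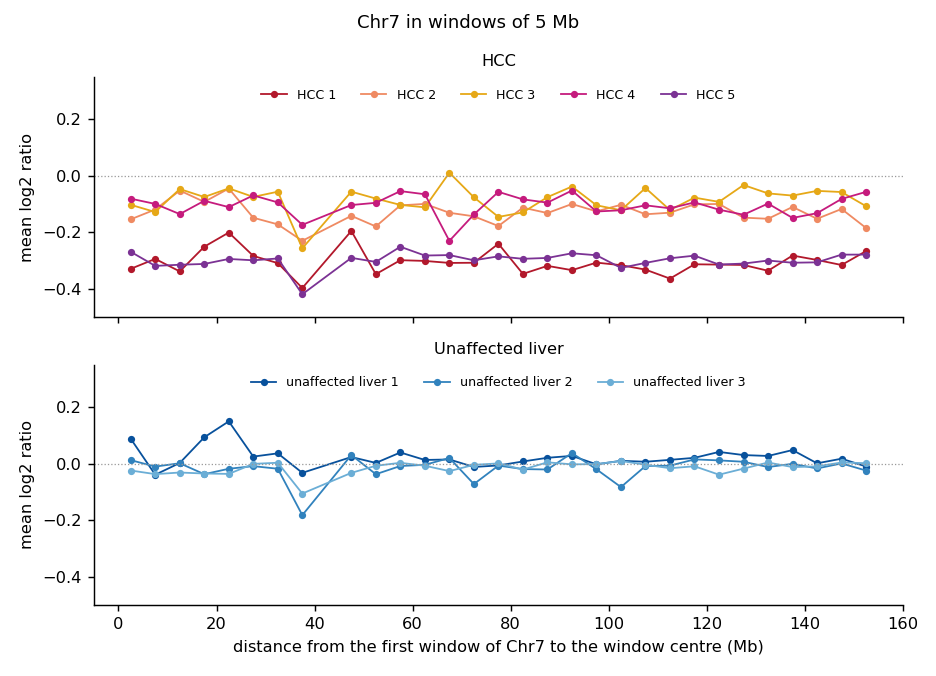
Mean log2 ratio (y axis) in 30 windows of 5 Mb along Chr7, by distance from the first window to the window centre (x axis, Mb), with 1 line per tissue, HCC above and unaffected liver below. HCC 1 and HCC 5 run between -0.42 and -0.19 from end to end, and the dip in most tissues is the window that holds the Kctd15 to Cebpg block.

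Single probes gave the same picture at a noisier scale. HCC minus unaffected liver was below 0 at 95.4% of Chr7 probes, against 50.2% of all autosomal probes, with a median of -0.19 on Chr7 and -0.0011 over all autosomes. Limma called 0 of the 3015 Chr7 probes and 0 of the 40726 autosomal probes (0% called, smallest adjusted p on Chr7 0.337). At an unadjusted p under 0.05 there were 225 of the 3015 Chr7 probes, 224 of them lower in HCC. Over all autosomes there were 3012 of 40726 (7.4%), 837 of them lower. Chr7 was thus near the autosomal share in number and differed in direction. The 5 HCC lay below the 3 unaffected livers without overlap at 500 Chr7 probes and above them at 1. Of the 40726 autosomal probes, 1312 (3.22%) had all HCC below and 2159 had all HCC above. The median SE of a probe's difference was 0.145, close to the size of the shift itself.

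The Chr7 probe with the smallest p lay in Foxa3 (chr7:19603981-19604040), a forkhead transcription factor of hepatocytes. It read -0.48, -0.48, -0.41, -0.58 and -0.56 in HCC 1 to HCC 5 and -0.093, 0.049 and -0.082 in unaffected livers 1 to 3. All 5 HCC were below all 3 unaffected livers, as at 500 of the 3015 Chr7 probes. The mean difference, at a probe chosen for its p, was -0.46 (SE 0.13, limma adjusted p = 0.337). The other 4 of the smallest p were probes of BC038349 (difference -0.47), Trim30, a tripartite motif protein (-0.49), and AK181724 (-0.52), and an unnamed probe at chr7:30923899-30923958 (-0.47), with adjusted p from 0.364 to 0.392. At AK181724 the HCC ranged from -0.80 in HCC 4 to -0.093 in HCC 3.

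Genes of Chr7 were read as the mean of their probes and grouped by function. Of 125 listed genes, 102 had a probe. HCC minus unaffected liver was below 0 for 101 of these 102, beside 1535 of all 1580 Chr7 genes and 51.4% of all autosomal genes. The median difference was -0.21 over the lists, -0.19 over all 1580 Chr7 genes and -0.0079 over all 19973 autosomal genes. All 5 HCC lay below all 3 unaffected livers for 24 of the 102, or 23.5%, beside 20.4% of all Chr7 genes and 3.72% of all autosomal genes. The one listed gene whose difference was not below 0 was Ccne1, a cyclin of S phase entry, at 0.010. The values of single genes rest on 1 to 5 probes each, and none of these probes passed the test.

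In the imprinted domains all 28 genes with a probe had a mean difference below 0, as had 1535 of all 1580 Chr7 genes. Groups did not overlap at 7 of the 28, beside 20.4% of all Chr7 genes. The Peg3 domain had a median of -0.19 over 3 genes. Peg3, a paternally expressed zinc finger gene, read -0.023, -0.13, 0.23, -0.072 and -0.31 in HCC 1 to HCC 5 and 0.25, 0.091 and 0.12 in unaffected livers 1 to 3, so that HCC 3 lay among the livers. Usp29, a ubiquitin protease, differed by -0.19 with no overlap and Zim1, a zinc finger gene, by -0.18 with overlap. The Prader-Willi and Angelman domain had a median of -0.19 over 10 genes. Ube3a, the ubiquitin ligase whose maternal copy is used in neurons, differed by -0.29, with HCC 3 at 0.22 and the other 4 HCC between -0.34 and -0.21. Atp10a, a phospholipid flippase, differed by -0.29 without overlap. The GABA receptor genes Gabra5 and Gabrg3 differed by -0.13 and -0.095.

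The Igf2 and Kcnq1 domain, near the distal end, had a median of -0.18 over 15 genes. Igf2, a fetal growth factor that is expressed from the paternal copy and often reactivated in liver tumours, read -0.29, -0.29, -0.20, -0.066 and -0.31 in HCC 1 to HCC 5 and -0.068, -0.042 and -0.057 in unaffected livers 1 to 3. HCC 4 at -0.066 lay above unaffected liver 1, and the other 4 HCC lay below all 3 livers. Cdkn1c, a maternally expressed inhibitor of cyclin-dependent kinases, read -0.32, 0.18, -0.022, -0.25 and -0.23 in the HCC and 0.34, 0.10 and 0.14 in the livers, a difference of -0.32 in which HCC 2 lay among the livers. Tssc4 differed by -0.24 without overlap, Th, the tyrosine hydroxylase gene, by -0.13 and Trpm5, a taste cell ion channel gene, by -0.12.

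Genes of liver function had a median difference of -0.22 over 29 genes, all below 0. Of these, 7 (24.1%) showed no overlap, beside 20.4% of all Chr7 genes. Fah, which acts in the last step of tyrosine breakdown, read -0.47, -0.092, 0.15, -0.18 and -0.25 in HCC 1 to HCC 5 and 0.12, 0.013 and 0.0075 in unaffected livers 1 to 3. Hamp, which encodes the iron hormone hepcidin, spread widest, from -0.90 in HCC 4 to 0.28 in HCC 3, with the livers between -0.0081 and 0.13. Cyp2b19, a cytochrome P450, differed by -0.056, and Bckdha, a subunit of the enzyme that breaks down branched-chain amino acids, by -0.026. Cebpg, a leucine zipper transcription factor, had the largest difference of the list at -0.41. Its single probe read 0.14 in unaffected liver 1 and -0.37 and -0.40 in unaffected livers 2 and 3, and it lies in the block described below.

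Genes of growth signalling had a median difference of -0.21 over 27 genes, 26 of them below 0. Without overlap were 7 (25.9%), beside 20.4% of all Chr7 genes. Ccnd1, the cyclin D1 gene near the distal end, read -0.50, -0.14, 0.15, -0.23 and -0.36 in HCC 1 to HCC 5 and -0.076, 0.011 and 0.049 in unaffected livers 1 to 3. Hras (Hras1 on the array), a Ras protein that is often mutated in mouse liver tumours, read -0.53, -0.14, -0.032, -0.21 and -0.26 in the HCC and 0.024, 0.018 and 0.041 in the livers, without overlap. The largest differences of the list were at Lmo1, a LIM-only transcription cofactor, at -0.48, Nupr1, a stress-induced chromatin protein, at -0.43, and Axl, a receptor tyrosine kinase, at -0.35. Each rests on 1 probe, and HCC 3 at 0.080 overlapped the livers at Lmo1 and HCC 4 at 0.084 did at Axl.

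Genes of DNA repair and cell death had a median difference of -0.20 over 11 genes and genes of mitosis one of -0.18 over 7, all below 0. Without overlap were 2 of the 11 (18.2%) and 1 of the 7 (14.3%), beside 20.4% of all Chr7 genes. Blm, a RecQ helicase, differed by -0.29 without overlap, from -0.33 in HCC 1 to -0.065 in HCC 3 against 0.068 to 0.13 in the livers. Bbc3, which encodes the p53 target and cell death protein Puma, differed by -0.30, Myd116, a phosphatase subunit of the stress response, by -0.27, and Pold1, the catalytic subunit of DNA polymerase delta, by -0.031. Among genes of mitosis, Prc1, a cross-linker of the central spindle, differed by -0.23, Sirt2, a tubulin deacetylase, by -0.22, Tsg101, a protein of membrane abscission, by -0.21 without overlap, and Kif22, a chromosome-binding kinesin, by -0.13. Bub3, a gene of the spindle checkpoint, was not among the gene names on these probes.

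**Figure D3:**
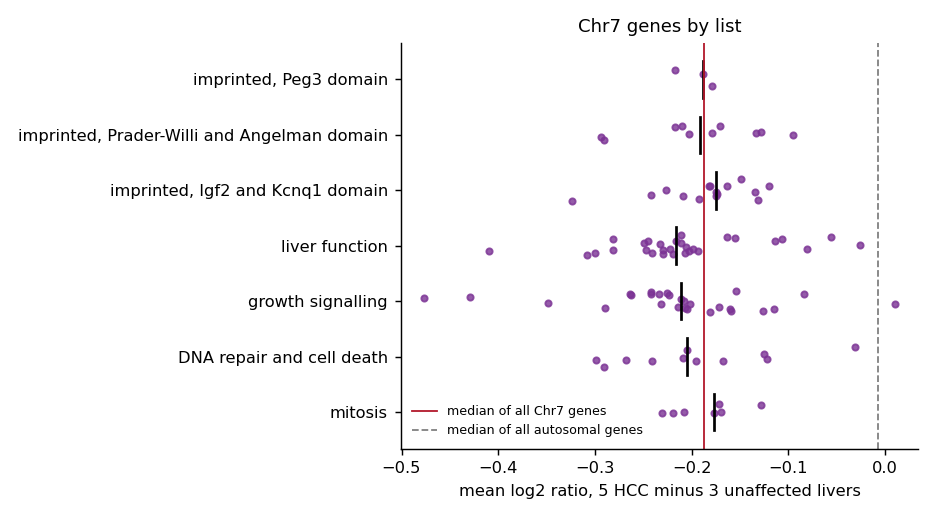
Difference of the mean log2 ratio, 5 HCC minus 3 unaffected livers (x axis), for each listed Chr7 gene (points, 1 row per list, spread vertically at random) with the median of its list (black bar). The list medians, from -0.22 to -0.18, lie around the median of all Chr7 genes (-0.19), and 101 of the 102 points lie below 0.

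The tandem gene clusters lay low in the HCC with the rest of the chromosome. The 147 probes of 138 olfactory receptor names had a median difference of -0.21, 88 probes of zinc finger genes -0.17, 20 of vomeronasal receptors -0.15, 17 of kallikreins -0.16 and 17 of family 2 cytochromes P450 -0.17. Medians of the Nlrp (-0.18), Mrgpr (-0.19), Siglec and CD33 (-0.21), Ceacam and Psg (-0.21), Trim (-0.23) and leukocyte receptor (-0.26) genes lay in the same range, and globins and serum amyloid A had 2 probes each. Relative to the Chr7 median of its tissue, no cluster of more than 2 probes had a median beyond 0.13 in any tissue. Past 1 in at least 1 tissue were 2 olfactory receptor probes, 2 zinc finger probes and 1 Ceacam or Psg probe, of 41 such probes on Chr7.

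A block of 9 probes from Kctd15 to Cebpg (chr7:35429866-35837938) read lower than the rest of Chr7 in 7 of the 8 tissues. It holds Kctd15, a BTB domain protein, Chst8, a sulfotransferase of hormone sugar chains, Pepd, the prolidase that cleaves proline dipeptides, and Cebpg. Relative to the Chr7 median of each tissue, the mean over its probes was -0.66 in HCC 3 and -0.54 in unaffected liver 2, both of mouse 3760. In mouse 4033 HCC 4 read -0.56, HCC 5 -0.57 and unaffected liver 3 -0.51. In mouse 3151 HCC 1 and HCC 2 read -0.32 and -0.32, and unaffected liver 1 read 0.038. Tumour and liver of one animal thus lay more than 0.3 apart in mouse 3151 alone. Each of the 9 probes lay below 0 in every tissue but unaffected liver 1, where 5 of 9 did. The SD over the 9 probes was 0.089 in unaffected liver 2 and 0.080 in unaffected liver 3, so that the values were nearly even across the block, while the 23 probes within 500 kb on either side averaged between -0.031 and 0.014 in all 8 tissues.

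Segmentation against the reference set this block apart in HCC 3, HCC 4, HCC 5 and unaffected livers 2 and 3, and in none of the tissues of mouse 3151. In HCC 5 the segment ran 1 probe further, to position 35880923. The single probe of Cebpa, the liver transcription factor gene next to Cebpg, was outside the block and read between -0.50 in HCC 2 and 0.29 in HCC 4. The lowest single value was the Pepd probe printed above, at -1.72 in HCC 3, and without it the HCC 3 mean was -0.52. Both dye orientations gave the block, at -0.62 and -0.45 in unaffected liver 2, at -0.56 and -0.45 in unaffected liver 3 and at -0.34 and -0.30 in HCC 2, and unaffected liver 1 read -0.047 and 0.11. Against its own liver the block differed by -0.36 in both HCC 1 and HCC 2, lower at 7 and 9 of 9 probes, and by -0.12, -0.055 and -0.065 in HCC 3, HCC 4 and HCC 5, on top of the shift of the chromosome. HCC 1 and HCC 2 were on another slide than unaffected liver 1, and the part of the slide was not tested. Since each tissue was read against one reference per array, a lower copy number in the tissue and a higher one in the reference cannot be told apart.

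**Figure D4:**
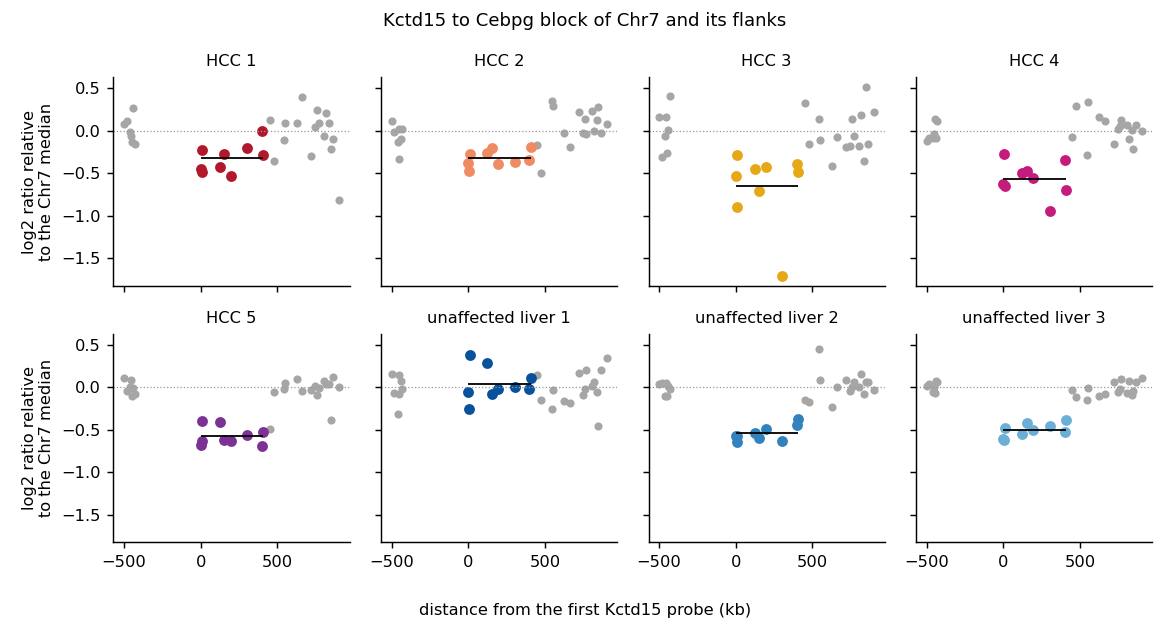
Log2 ratio relative to the Chr7 median of the tissue (y axis) for the 9 probes of the Kctd15 to Cebpg block (coloured) and the 23 probes within 500 kb on either side (grey), by distance from the first Kctd15 probe (x axis, kb), 1 panel per tissue. Black lines are block means, which run from -0.66 to -0.32 in 7 tissues and lie at 0.038 in unaffected liver 1.

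Segmentation against the reference gave 18 local regions in the 8 tissues, which were segments of at least 5 probes whose mean lay at least 0.3 from the Chr7 median. Of the 13 calls outside the block, 8 came within 0.3 once the farthest of their probes was left out. Unaffected liver 2 had 9 of the 18, HCC 3 had 3 and each other tissue 1, and the noise between neighbouring probes was 0.091 in unaffected liver 2, 0.084 in unaffected liver 3, 0.11 in HCC 5 and 0.17 to 0.20 in the other 5 tissues. The region of Fgf21, a liver hormone, Fut1, a fucosyltransferase, Izumo1, a sperm-egg fusion protein, and Rasip1, a Ras-binding protein of blood vessels (chr7:52870260-52890207), averaged -0.74 in unaffected liver 2 and -0.13 without the first Rasip1 probe. The region around Ccne1 (chr7:38799528-39004995) averaged -0.91 in unaffected liver 2 and -0.81 in HCC 3, and -0.25 and -0.22 without the C80913 probe. That probe was also low outside mouse 3760, at -0.89 in HCC 1, -1.15 in HCC 2 and -0.96 in unaffected liver 3. A second probe of the region, in AK181724, read -1.38 in HCC 3 and -0.90 in unaffected liver 2. Another AK181724 probe of the region, the one named above among the smallest p, read -0.019 and 0.096 in the same tissues. The Ccne1 probe itself had a ratio of -0.18 in unaffected liver 2 and 0.25 in HCC 3, so that it did not share the low values. The regions of Lrrk1, a kinase gene, and Aldh1a3, a retinoic acid enzyme gene (-0.55), and of Klf13 and Trpm1 (-0.43) averaged -0.089 and -0.15 without 1 probe each. The region of AK030497 held 5 probes over 2740540 bases (chr7:100368003-103108542) and averaged -0.77 and -0.92 in unaffected liver 2 and HCC 3, and -0.22 and -0.35 without 1 probe. A region of Trim6 and Trim12, tripartite motif genes (chr7:111371330-111507023), averaged -0.51 in unaffected liver 2 and -0.39 without its farthest probe, and -0.32 in HCC 3.

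Probes of this kind were then sought along all autosomes. They had to lie past 1, in one direction, in every tissue of 1 mouse and within 0.5 of the chromosome median in every tissue of the others. The rule was set after such probes had been seen on Chr7, so that its counts are no test of Chr7. Mouse 3760 gave fewer tissues than either other mouse, so that fewer values had to lie past 1 in it. On Chr7 6 probes read lower in mouse 3760 in this way, and these were all 6 that the 40726 autosomal probes held (0.0147%). On Chr7 2 probes read higher in mouse 3151, of 5 on all autosomes (0.0123%). Chr7 held none of the 7 that read lower in mouse 3151 (0.0172%), of the 1 higher in mouse 3760 (0.00246%), or of the 6 lower (0.0147%) and 2 higher (0.00491%) in mouse 4033, and itself carries 7.4% of the autosomal probes. The count for mouse 3760 depended on the background correction. With normexp it was 3 on Chr7 and 3 on all autosomes (Rasip1, Klhl25 and AK030497), and with forward arrays alone it was 4 of 5. The count for mouse 3151 was 1 of 2 on forward arrays alone. With a threshold of 0.7 in place of 1, chosen like the first after values were seen, 9 of the 15 probes lower in mouse 3760 were on Chr7, and with 1.5 it was 3 of 3.

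The 6 probes of mouse 3760 lay between chr7:52885244-52885303 and chr7:103108483-103108542. The first Rasip1 probe read -3.43 in HCC 3 and -3.19 in unaffected liver 2, and between -0.099 and 0.22 in the 6 tissues of the other mice. The second Rasip1 probe, the next one on the array, read -0.034 and -0.073 in the same 2 tissues. AK030497 read -3.18 in HCC 3 and -2.98 in unaffected liver 2, and between -0.13 and 0.23 elsewhere. The size of such low ratios depended on the background correction, and with normexp the smaller of the 2 values was 1.62 in size at Rasip1 and 1.94 at AK030497. Klhl25, an adaptor of a ubiquitin ligase, read -1.55 and -1.48, and the unnamed probe beside Trpm1, at chr7:71165778-71165837, read -1.69 and -1.55. Lrrk1 at -1.12 and -2.37 and D330012F22Rik at -2.47 and -1.34 differed more between HCC 3 and unaffected liver 2. In unaffected liver 2 the dye orientations gave -2.78 and -3.59 at Rasip1, -3.10 and -2.85 at AK030497 and -1.47 and -1.48 at Klhl25, but -1.36 and -3.38 at Lrrk1. Both probes next to each of the 6 stayed within 0.70 of the Chr7 median in all tissues. Whether the low ratios reflect a lower copy number was not tested. In the paper, candidate genes of aCGH shared by thymus and liver tumours proved to be artifacts of the mixed strain background.

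**Figure D5:**
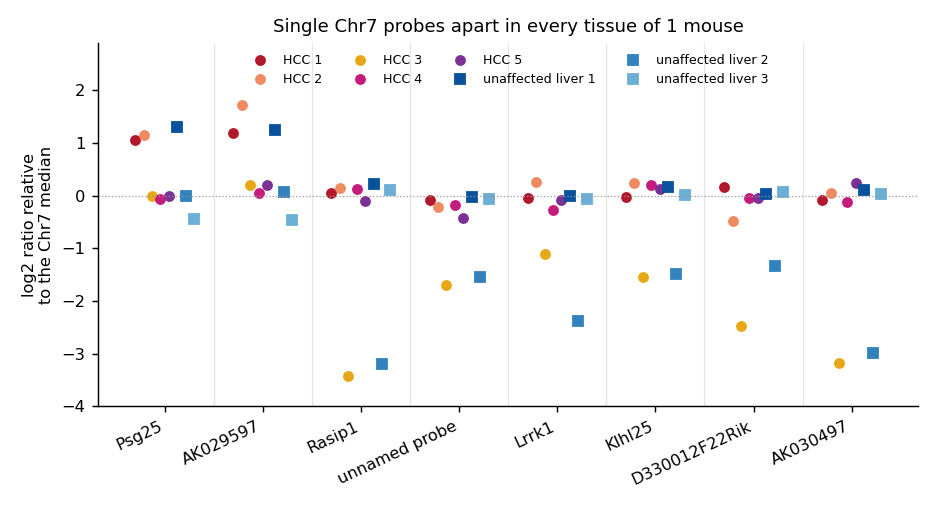
Log2 ratio relative to the Chr7 median of the tissue (y axis) at the 8 Chr7 probes that stood apart in every tissue of 1 mouse (x axis, by gene name in order of position). Circles are HCC and squares unaffected livers. HCC 3 and unaffected liver 2, of mouse 3760, lie between -3.43 and -1.12 at 6 probes, and the 3 tissues of mouse 3151 between 1.05 and 1.72 at 2.

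In mouse 3151 the proximal part of Chr7 held probes that read higher than the rest. Psg25, a pregnancy-specific glycoprotein gene, read 1.05 in HCC 1, 1.16 in HCC 2 and 1.30 in unaffected liver 1, and between -0.44 and -0.0049 in the tissues of the other mice. AK029597, beside Zfp112, read 1.20, 1.72 and 1.24 in the same 3 tissues and between -0.47 and 0.21 in the others. Zfp61, a zinc finger gene, read 1.33, 0.93 and 1.03, against -0.35 to -0.021 elsewhere. These probes were chosen for being high in all 3 tissues of mouse 3151. The regions around them were set apart in 1 tissue of the mouse each. The region of Psg and Ceacam genes (chr7:17612303-19307268, 18 probes) averaged 0.12 and 0.20 in HCC 1 and HCC 2 and 0.36 in unaffected liver 1. That of Zfp180 and Zfp112 (chr7:24870910-24916372) averaged 0.67 in HCC 2, 0.54 in HCC 1 and 0.45 in unaffected liver 1, and that of Zfp61 and Zfp94 (chr7:25071379-25106539) 0.55 in HCC 1, 0.35 in HCC 2 and 0.42 in unaffected liver 1. In the 5 tissues of the other mice the 3 regions averaged between -0.18 and 0.053. The reference of mouse 3151 was male and that of the other mice female. A higher reading of the tissues of mouse 3151 and a lower one of their reference cannot be told apart.

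Set against the liver of the same mouse, these local differences were no longer called. Segmentation of HCC minus own liver returned 1 segment from the first to the last Chr7 probe in each of the 5 HCC, with means of -0.34, -0.16, -0.062, -0.091 and -0.29 in HCC 1 to HCC 5 and 0 local regions. A step of the size of the block in HCC 1 and HCC 2 was not set apart at the noise of these profiles, which was 0.26 and 0.20 there and 0.12 in HCC 5.

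Across the 15 arrays the median signal over background was 3.78 to 6.88 in green and 3.72 to 7.95 in red. On Chr7 0% to 0.392% of spots per array carried an outlier mark, and 0.0979% to 2.02% were dim or saturated. The precision of every value rests on the 5 and 3 tissues.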

How the data were processed

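Genomic DNA was hybridised to Agilent oligonucleotide arrays in both dye orientations for 7 tissues and in 1 for HCC 3, 15 arrays in all, on 4 slides over 2 scan days. Per the file headers, the authors made the intensity values with Agilent Feature Extraction 9.1.3.1, which subtracted background, detrended and dye-normalised them. The deposited log10 ratios equalled the LogRatio of the scanner files with the sign turned on dye swaps.

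The processed intensities gave log2 of tissue over reference for every spot, with dye swaps turned in sign. Controls and outlier-marked spots were dropped, repeats of a probe averaged, the autosomal median of an array was set to 0, and the orientations were averaged. This centring sets 0 at the median autosomal probe of an array and not at a known copy number. Two-sided limma 3.58.1 fits (R 4.3.3; lmFit, then eBayes) set the 5 HCC against the 3 unaffected livers over 19 autosomes, 484 windows of 5 Mb and 40726 probes, and p-values were adjusted by Benjamini-Hochberg, with 0.05 as the threshold. Segments of at least 5 probes came from optimal partitioning, where each added segment cost the squared noise multiplied by 3 and by the natural log of the probe number. A local region held less than 50% of the Chr7 probes. Fits and segments were tested on simulated data. A simulated shift of 0.5 was called at 0% of the shifted probes and 45% of the shifted windows, and a shift of 1 at 63% and 100%. The Chr7 difference of -0.18 was smaller than each simulated shift, so that 0 calls on Chr7 could not show its absence. Python 3.11.15, numpy 2.4.6, pandas 2.3.3 and matplotlib 3.10.9 were used.

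The chromosome, gene lists and thresholds were chosen with earlier results of these data known. Named in full were, per list, the 4 genes whose difference lay farthest from that of Chr7, with Bub3, Igf2, Cdkn1c, Ccnd1, Fah and Hras, the genes of the 10 local regions with the largest mean and the 5 probes with the smallest p. Genes shown at further probes were chosen after their values were seen. Of the 1580 gene names, 1090 matched a current and 179 an older symbol of the GRCm38.p6 gene table. Tissues of one animal pair the groups, and after removal of group means the probes of 2 tissues of a mouse had r between 0.13 and 0.29 (5 pairs), against -0.21 to 0.087 for tissues of different mice (10 pairs).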

Additional observations from a re-analysis of the deposited data

Results flagged for a closer look

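Among 57 values of the 5 HCC that were examined for one tissue far from the others, 12 had such a tissue. The rule marks about 1 in 20 values by chance, but that rate does not hold for values chosen by their size. The listed genes marked here were chosen for a difference far from that of Chr7. The other 8 were regions or probes that stood apart in mouse 3760 when chosen, whose single tumour is HCC 3. These 8 were all HCC 3. The region means were -0.56 around Rasip1 (other HCC -0.036 to -0.0057), -0.92 around AK030497 (-0.15 to 0.12) and -0.32 around Trim6 and Trim12 (-0.077 to 0.010), and the probes read -3.43 at Rasip1, -1.69 at the unnamed probe beside Trpm1, -1.55 at Klhl25, -2.47 at D330012F22Rik and -3.18 at AK030497. Of the listed genes, HCC 3 stood apart at Ube3a (0.22, other HCC -0.34 to -0.21) and Ccne1 (0.25, other HCC -0.36 to -0.19), HCC 4 at Gabra5 (0.16, other HCC -0.26 to -0.16) and HCC 1 at Nupr1 (-0.74, other HCC -0.18 to -0.081). HCC 3 was read on 1 array.

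Cyp2b19 differed in direction between mouse 3151, the only female, and the male mice. HCC minus own liver was 0.050 on average over both HCC of mouse 3151 and between -0.23 and -0.019 in the 3 HCC of mice 3760 and 4033. Both HCC of mouse 3151 were set against the same value of unaffected liver 1, at -0.21. Mouse 3151 was also the only p53(f/+) animal and the oldest, so that sex, genotype, age and animal cannot be told apart. The difference was not tested, and it was the only one of 32 values compared in this way that went in opposite directions.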

How the results depend on the processing

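Chr7 was lower in HCC under each of the 20 alternatives fitted with limma, with differences from -0.24 (centring on the mode of the autosomal probes) to -0.15 (without HCC 1) and adjusted p from 0.144 to 0.746, none past the threshold. The value was -0.18 on the deposited log10 ratios, after loess, on forward arrays alone, without dim or saturated spots and after centring within equal GC content (chosen after seeing the data), -0.16 with normexp background correction and with the slide as a block, -0.21 after centring outside Chr7, -0.19 with the scan day as a block and -0.18 with the replicate block by mouse (adjusted p = 0.544), a block that changed no call. No Chr7 window was called under 22 alternatives and no Chr7 probe under 19, with smallest adjusted p of 0.188 and 0.135. Leaving out tissues gave 0 windows and 0 probes throughout. Local regions of HCC minus own liver numbered 0 under 3 alternatives, 2 with a penalty of 2 (both in HCC 2, at Zfp28 to Zfp78 and at Usp47) and 1 on forward arrays alone (HCC 2, at Oscar to Mboat7), and the cause was not tested. The Kctd15 to Cebpg block kept its values, between -0.66 and -0.32 in the 7 tissues under 6 other settings. Among alternatives chosen after seeing the data, normexp left 3 of the 6 Chr7 probes that read lower in mouse 3760. The unnamed probe beside Trpm1 (0.57 in size), D330012F22Rik (0.93) and Lrrk1 (0.99) no longer lay past 1, while Klhl25, at 1.60, did not come nearer 0. The Chr7 probes that read higher in mouse 3151 numbered 1 on forward arrays alone. The other 7 alternatives for each of these counts gave 4 to 6 and 2 to 3 probes, and the cause was not tested. With 5 and 3 tissues, shifts of the size seen on Chr7 are near the SE of the comparison, signals a few times over background limit low ratios such as those near -3, and local regions of 5 probes are harder to find in the noisier tissues.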
